A study of Mus musculus with 12 samples.

Results

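The T cell receptor genes described here are the V segments of the alpha and beta chains and the genes of their constant regions. Every symbol of the deposited expression table that begins with Trav or Trbv was taken, together with Trac, Trbc1 and Trbc2. This gave 97 members of 32416 symbols, namely 74 Trav segments, 20 Trbv segments and 3 constant genes. The number of segments above 0 and their summed level were set against the alpha chain (TRA) and beta chain (TRB) entries of a deposited repertoire table that covers the same libraries. The GENCODE M21 annotation holds 163 Trav and Trbv segments, so the table covers part of them.

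Tumours of B16, a melanoma line of C57BL/6 mice, were grown under the skin of C57BL/6 mice and their bulk polyA RNA was sequenced in 12 libraries. The B16mhgp100 model had 4 tumours with over-expressed Aoah, the gene of the lipase acyloxyacyl hydrolase, and 4 with the Vector, all under anti-PD1 begun on day 10 after inoculation. B16F10 tumours, 2 Aoah and 2 Vector, were all under anti-PD1 with anti-CTLA4 begun on day 6. Each antibody was given at 200 µg a dose for 4 doses, with harvest 1 day later. No group went without antibody, and since the models differ in cell line, antibodies and start of dosing at once, the parts of these cannot be told apart. The promoter of the over-expression vector and the number of clones behind each line are not stated in the labels. The labels do not state that each tumour is from its own mouse, and p-values refer to the spread among these tumours.

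Each developing T cell joins 1 V segment to short joining pieces and splices the product to a constant region. The joint forms the third complementarity-determining region (CDR3), the part that differs most between clones. Alpha chains use Trac, and beta chains use either Trbc1 or Trbc2, depending on the joining cluster chosen. Melanoma cells do not rearrange these genes, and a C57BL/6 host keeps its own T cells, so receptor RNA in such tumours is taken as coming from host lymphocytes. In bulk RNA, fewer T cells and less receptor RNA per cell cannot be told apart.

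The ends of the V segments are shown first, because they carry the start of CDR3 and show how alike some segments are. Each line gives the last 60 bases of the annotated transcript, 5′ to 3′, with capitals from the conserved cysteine codon to the end of the germline segment. The sequences are from GENCODE M21 on GRCm38, with Trav on chromosome 14 and Trbv on chromosome 6. Trav4-4-dv10 led the alpha locus in most libraries, and Trav6d-7 and Trav6n-7 are a pair of copies.
Trav4-4-dv10: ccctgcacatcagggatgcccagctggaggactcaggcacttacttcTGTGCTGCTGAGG
Trav6d-7: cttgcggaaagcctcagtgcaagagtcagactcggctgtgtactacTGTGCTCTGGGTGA
Trav6n-7: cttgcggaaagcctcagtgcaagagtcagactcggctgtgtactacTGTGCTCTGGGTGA
Trbv13-1: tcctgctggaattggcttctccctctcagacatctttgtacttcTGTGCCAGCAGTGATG
Trbv13-2: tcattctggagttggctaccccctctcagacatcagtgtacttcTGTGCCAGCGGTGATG
Trbv13-3: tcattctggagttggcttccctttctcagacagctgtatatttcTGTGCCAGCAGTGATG
Trbv16: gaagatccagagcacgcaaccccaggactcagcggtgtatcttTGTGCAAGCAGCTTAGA
Trbv19: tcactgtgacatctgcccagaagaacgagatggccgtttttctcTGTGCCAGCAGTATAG
Trbv22: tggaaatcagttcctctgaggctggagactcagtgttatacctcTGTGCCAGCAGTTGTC

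Trav6d-7 and Trav6n-7 have the same 358-base transcript, so no read from the germline segment can assign one over the other. The Trbv13 transcripts are alike over most of their length, with 88.7% identity between Trbv13-1 and Trbv13-2, 86.1% between Trbv13-1 and Trbv13-3 and 90.6% between Trbv13-2 and Trbv13-3. Their separate levels are therefore less certain than their sum. Trbc1 and Trbc2 matched at 87.1% of 677 aligned bases and share an identical stretch of 259 bases. The 60-base window below starts at base 459 of each transcript and holds 11 of the differences, in capitals. Reads over these or over differing bases elsewhere in the transcripts can separate these genes.
Trbc1: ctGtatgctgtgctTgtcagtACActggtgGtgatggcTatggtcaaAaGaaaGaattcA
Trbc2: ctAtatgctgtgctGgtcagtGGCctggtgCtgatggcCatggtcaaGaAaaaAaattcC

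Several libraries stood apart in ways that touch these genes. The library labelled Aoah 4 of B16mhgp100 had Aoah at 3.91 TPM (transcript level scaled for length and library size), within the 0.89 to 7.58 TPM of its Vector group, and the other 3 Aoah libraries had 13.96 to 22.46 TPM. It also had Krt14, a keratin of the basal epidermis, at 600.09 TPM, against at most 6.23 TPM elsewhere, and Sox10, a melanocyte factor, at 93.56 TPM. Across genes its deviation from the other libraries fell with transcript length (Spearman rho -0.387), and the other libraries lay between -0.300 and 0.225. Vector 2 of B16F10 had 10.4% of its TPM in mitochondrially encoded genes, against at most 6.38% elsewhere. The melanoma label was met in every library, with summed Sox10, Mlana, Pmel and Tyr of 3564 to 18234 TPM. In B16F10, Aoah itself was at 21.75 and 23.73 TPM in the tumours labelled Aoah, against 1.49 and 0.75 TPM in Vector.

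The constant genes were the best measured members. In B16mhgp100 they did not separate the groups, and in B16F10 each was higher in both Aoah tumours than in either Vector tumour. Trac, which every alpha chain uses, had 3.43, 1.71, 2.54 and 3.62 TPM in Aoah 1 to Aoah 4 of B16mhgp100, against 4.06, 1.06, 2.92 and 0.87 TPM in Vector 1 to Vector 4. These ranges overlapped, and the highest and the lowest values were both in Vector tumours. Aoah tumours averaged 2.83 ± 0.880 TPM, against 2.23 ± 1.53 TPM for Vector (SD, n = 4 each). Without Aoah 4 the Aoah mean was 2.56 ± 0.860 TPM (SD, n = 3). In B16F10, Trac had 6.36 and 9.16 TPM in Aoah tumours, against 2.03 and 0.45 TPM in Vector tumours. The order of group means ran from 7.76 TPM in B16F10 Aoah through both B16mhgp100 groups to 1.24 TPM in B16F10 Vector, and the 3 lower groups overlapped.

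Trbc1, the constant gene of the first joining cluster, had 2.59, 1.07, 0.63 and 5.88 TPM in Aoah 1 to Aoah 4 of B16mhgp100, against 4.59, 1.09, 1.59 and 1.20 TPM in Vector 1 to Vector 4. In each group 1 library was far above the rest, Aoah 4 and Vector 1. Without Aoah 4 the Aoah mean was 1.43 ± 1.03 TPM (SD, n = 3), and the Vector mean was 2.12 ± 1.66 TPM (SD, n = 4). In B16F10, Trbc1 had 4.75 and 5.03 TPM in Aoah tumours, against 1.60 and 0.20 TPM in Vector tumours. The B16F10 groups did not overlap.

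Trbc2, the constant gene of the other cluster, had 5.25, 2.35, 2.53 and 19.23 TPM in Aoah 1 to Aoah 4 of B16mhgp100, against 5.13, 1.54, 2.01 and 1.96 TPM in Vector 1 to Vector 4. Aoah 4 alone made the Aoah mean 7.34 ± 8.04 TPM (SD, n = 4), and without it the mean was 3.38 ± 1.62 TPM (SD, n = 3), against 2.66 ± 1.66 TPM in Vector tumours (SD, n = 4). In B16F10, Trbc2 had 15.54 and 19.94 TPM in Aoah tumours, against 4.53 and 1.54 TPM in Vector tumours. The B16mhgp100 Aoah 4 value thus lay within the range of the B16F10 Aoah tumours, although its Trac was far below theirs.

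**Figure D1:**
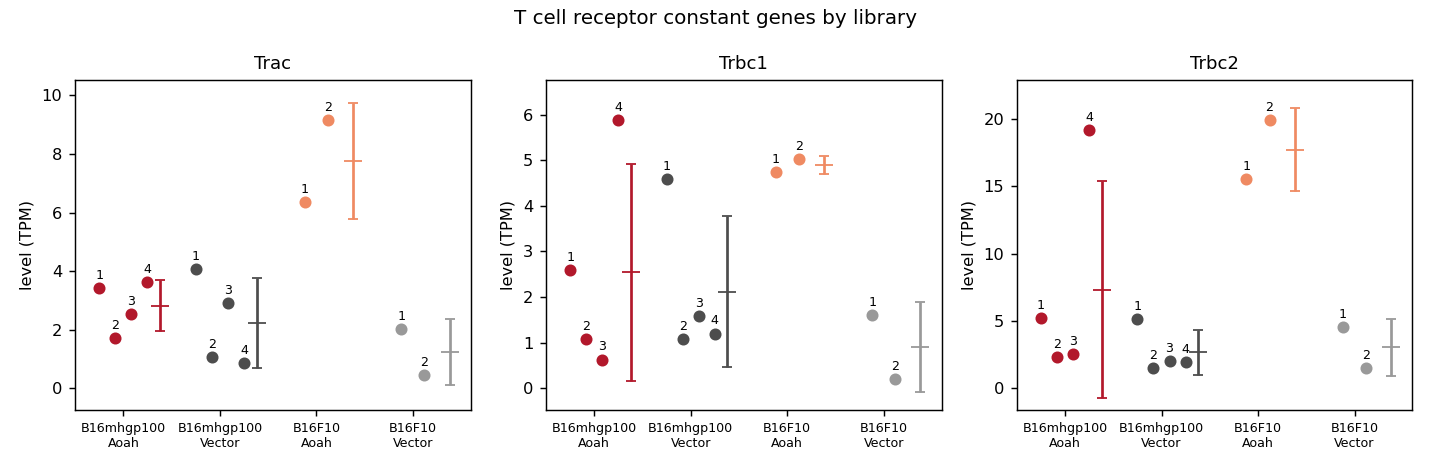
Level of Trac, Trbc1 and Trbc2 in TPM (vertical axis) in each library, with points numbered by replicate and grouped by model and construct, and with bars for the mean ± SD of each group. The B16F10 Aoah libraries lie above both B16F10 Vector libraries in each panel, and Trbc2 of B16mhgp100 Aoah 4, at 19.23 TPM, lies far above the rest of its group.

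The plot of the constant genes shows that the spread within the B16mhgp100 groups exceeds the gap between them, and that the error bar of Trbc2 is set by a single library. The share of Trbc2 in the summed Trbc1 and Trbc2 level showed another pattern. It was 67.0%, 68.7%, 80.1% and 76.6% in Aoah 1 to Aoah 4 of B16mhgp100, against 52.8%, 58.6%, 55.8% and 62.0% in Vector 1 to Vector 4. All 4 Aoah values lay above all 4 Vector values, also without Aoah 4. In B16F10 the shares were 76.6% and 79.9% in Aoah tumours and 73.9% and 88.5% in Vector tumours, which overlapped. This share was picked after its values were seen and was not tested, and it rests on how reads were divided between genes that share long identical stretches.

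The fits across all genes used log2(TPM + 1), a scale that understates the change of low genes, with limma and a threshold of 0.05 on the Benjamini-Hochberg adjusted p. In B16mhgp100, 0 of the 5 members that passed a filter of 1 TPM in 4 libraries were called, where 0% of all 14228 genes tested were called. At an unadjusted p below 0.05 there were 0 members and 350 genes. For Trbc2 the log2 fold change was 0.86 (SE 0.57, limma adjusted p = 0.694), and it was 0.29 without Aoah 4. Trac had 0.34 (SE 0.36) and Trbc1 0.08 (SE 0.49), and the value of Trbc1 turned to -0.31 without Aoah 4. The median of all genes in this model was -0.20. The 95% interval of the Trac difference ran from -0.48 to 1.16, so a change of either sign was within it.

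In B16F10, 0 of the 15 members tested were called by limma, where 0.344% of 14533 genes were called, and 12 of the 15 had an unadjusted p below 0.05, as did 2642 of all genes tested. A segment could enter through its level in the 2 Aoah libraries alone, so nothing is read from the direction of the segments that entered. For Trac the log2 fold change was 2.04 (SE 0.43, limma adjusted p = 0.118). Trbc2 had 2.31 (SE 0.43, limma adjusted p = 0.101), and Trbc1 had 1.74 (SE 0.42, limma adjusted p = 0.140). Without Vector 2 these were 1.51 for Trac, 1.75 for Trbc2 and 1.18 for Trbc1, in a fit that assumes the lone Vector tumour to vary like the Aoah group. No constant gene was called with any 1 library left out.

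The authors' deposited tables, made from counts, gave a partly different answer. For B16F10, 8.53% of the 14328 genes with an adjusted p were called in the authors' deposited table, and 2 of the 3 members with an adjusted p were, Trac and Trbc2. Its log2 fold changes were 2.57 for Trbc2 (SE 0.659, adjusted p = 0.00287) and 2.61 for Trac (SE 0.866, adjusted p = 0.0349), both as the authors' deposited table gives them. Trbc1, at 2.45 (SE 1.14, adjusted p = 0.191), was not called there. For B16mhgp100, 0.0146% of 20534 genes and 0 of 6 members were called in the authors' deposited table, which lists Trbc2 at 2.03 with no p-value. The signs of the constant genes are the same there as in the limma fits.

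The difference between the models was also fitted. Of 17 members tested, 0 were called by limma, where 0.0302% of 16556 genes were called, and 9 members and 936 genes had an unadjusted p below 0.05. For Trac the B16F10 difference exceeded the B16mhgp100 difference by 1.70 (SE 0.64, limma adjusted p = 0.818). For Trbc2 the excess was 1.45 (SE 0.94) and for Trbc1 it was 1.66 (SE 0.83). Trbv19 had an excess of 1.98 (SE 0.31, limma adjusted p = 0.0639), and without Aoah 4 of B16mhgp100 an adjusted p of 0.0477 in limma. It reached 1 TPM in the B16F10 Aoah libraries alone and entered the fit through them, so nothing is read from these values. Across its alternatives the adjusted p of Trbv19 ran from 0.00279 to 0.811 in limma.

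The segments themselves were seen at the edge of detection. No segment was above 0 in all 12 libraries, and 240 of 1128 segment values (21.3%) were above 0. Of the 74 Trav segments, 33 were above 0 in 1 library and 21 in 2, and only Trav4-4-dv10 reached 6 or more libraries. Of the 20 Trbv segments, 3 were above 0 in 1 library and 2 in 2, and 6 reached 6 or more. The median of the values above 0 was 0.525 TPM for Trav and 0.800 TPM for Trbv, and the highest were 3.92 TPM and 8.87 TPM.

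The mean normalised counts of the authors' deposited tables show how few reads this is. Over segments the median was 0.130 counts in B16mhgp100 and 0.270 counts in B16F10, and 67 of 71 and 55 of 68 segments listed lay below 1 count. The highest were Trbv16 at 2.40 counts in B16mhgp100 and Trbv13-2 at 7.07 counts in B16F10, against 18.1 and 29.0 counts for Trac. Where a segment was above 0 TPM in 1 library of its model, the authors' mean times the number of libraries gives that library's normalised count. This was at most 1.5 for 36 of 42 such segments in B16mhgp100 and for 35 of 39 in B16F10. Of these, 11 in each model had a normalised count of 0.

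In B16mhgp100, fewer segments were above 0 on average in Aoah than in Vector tumours, with overlapping ranges, and in B16F10 more were. For Trav, the number above 0 was 11, 5, 9 and 7 in Aoah 1 to Aoah 4 of B16mhgp100, against 20, 6, 14 and 10 in Vector 1 to Vector 4. It was 19 and 33 in Aoah tumours of B16F10, against 15 and 5 in Vector tumours. The B16F10 groups did not overlap, and their nearest libraries, Aoah 1 and Vector 1, were 4 segments apart.

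For Trbv, 6, 7, 6 and 3 segments were above 0 in Aoah 1 to Aoah 4 of B16mhgp100, against 9, 4, 9 and 5 in Vector 1 to Vector 4. In B16F10 there were 14 and 15 in Aoah tumours, against 4 and 4 in Vector tumours. The nearest B16F10 libraries of the groups were 10 Trbv segments apart. Over both loci, B16mhgp100 tumours had 13.5 ± 3.11 segments in Aoah and 19.3 ± 8.42 in Vector (SD, n = 4 each), or 14.7 ± 2.52 in Aoah without Aoah 4 (SD, n = 3). B16F10 tumours had 40.5 ± 10.6 in Aoah and 14 ± 7.07 in Vector (SD, n = 2 each).

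Summed levels gave a like picture. The Trbv sum was 5.84, 6.32, 7.13 and 3.26 TPM in Aoah 1 to Aoah 4 of B16mhgp100, against 8.04, 4.21, 11.91 and 4.42 TPM in Vector 1 to Vector 4. In B16F10 it was 26.24 and 34.75 TPM in Aoah tumours, against 2.44 and 3.95 TPM in Vector tumours. The Trav sum was 7.93, 2.34, 7.57 and 2.87 TPM in Aoah 1 to Aoah 4, against 12.18, 3.00, 6.76 and 5.72 TPM in Vector 1 to Vector 4 of B16mhgp100. The overlap in B16mhgp100 was wide for both loci. For Trav in B16F10 the sums were 17.15 and 26.63 TPM in Aoah tumours, against 9.74 and 3.64 TPM in Vector tumours.

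**Figure D2:**
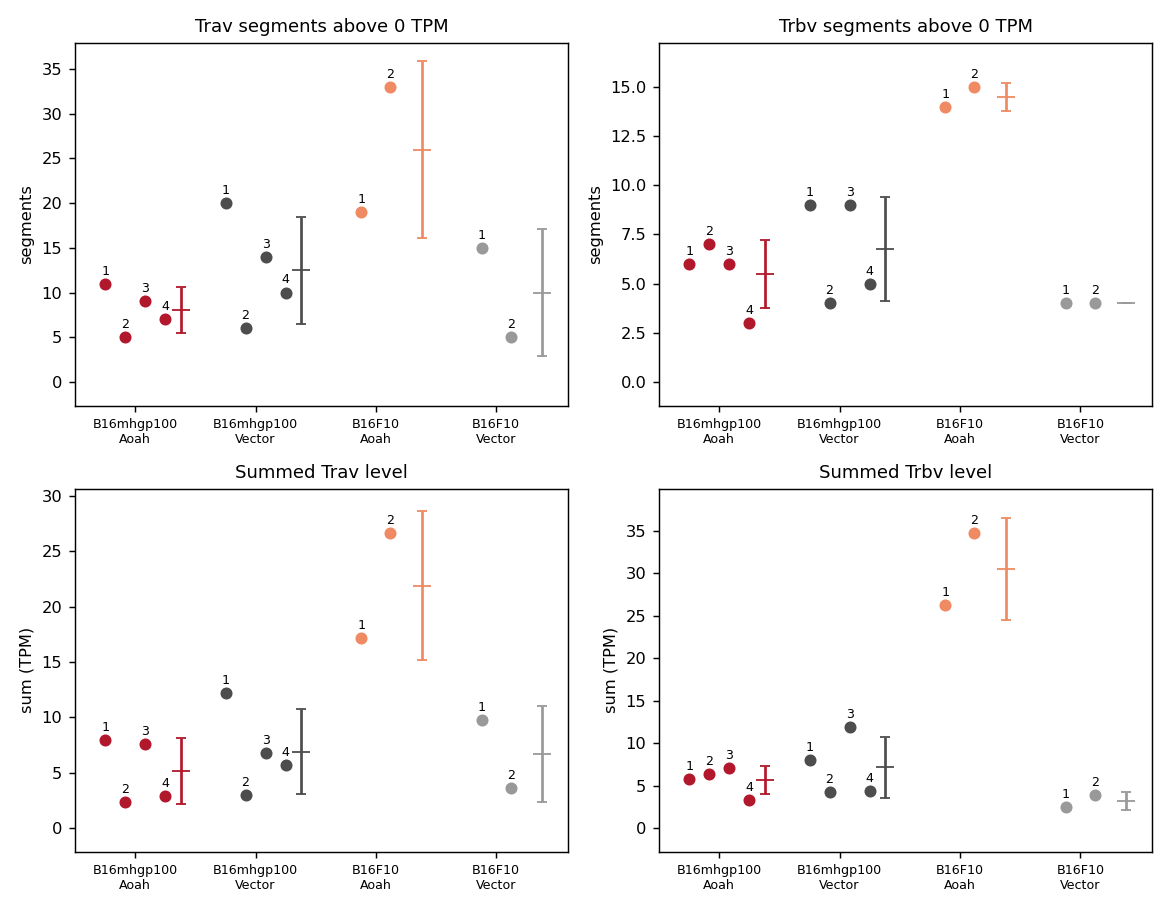
Number of Trav and Trbv segments above 0 TPM (upper panels) and their summed TPM (lower panels) in each library, with points numbered by replicate and bars for the mean ± SD of each group. The B16F10 Aoah libraries have 14 and 15 Trbv segments and the B16F10 Vector libraries 4 and 4, and the B16mhgp100 groups overlap in every panel.

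The panels of segment number and of summed level place the groups in the same order at each locus in B16F10. A stricter limit of 1 TPM left 1 to 3 Trbv segments in Aoah and 1 to 4 in Vector tumours of B16mhgp100. At that limit B16F10 had 9 and 10 in Aoah and 1 and 1 in Vector tumours. Whether a segment reaches this limit depends on its level in the same library, so these counts are no separate support.

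Taken segment by segment, 10 of 20 Trbv segments (50%) and 11 of 74 Trav segments (14.9%) were higher in both B16F10 Aoah tumours than in either Vector tumour. The same held for 16.7% of all 32416 symbols, a value near the Trav share and below the Trbv share. Among the segments counted, Trbv4, Trbv5, Trbv12-2, Trbv13-1, Trbv13-3, Trbv14 and Trbv19 were listed at 0 in both Vector tumours. A few reads in the Aoah tumours suffice there. The Trav count also holds the copies Trav6d-7 and Trav6n-7 as separate segments. The shares are therefore a description, and nothing is read from them about the loci. No segment was lower in both Aoah tumours than in either Vector tumour. In B16mhgp100, 0 of 20 Trbv and 0 of 74 Trav segments lay higher in all 4 Aoah than in all 4 Vector tumours, where 0.700% of all symbols did. By group means in B16mhgp100, 6 Trbv segments were higher in Aoah and 13 were lower, and 18 Trav segments were higher and 35 lower.

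Replicates differed in which segments they showed. In B16F10 Aoah the tumours shared 12 Trbv segments, 85.7% of those in Aoah 1 and 80% of those in Aoah 2, and 13 Trav segments, 68.4% and 39.4% of those lists. In B16F10 Vector the tumours shared 1 Trbv and 1 Trav segment. In B16mhgp100 no segment was above 0 in all 4 Aoah or in all 4 Vector tumours. Pairs of tumours there shared 0 to 4 Trbv segments in Aoah and 0 to 5 in Vector.

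Trbv13-2 had the highest mean of the beta segments over the 12 libraries, 2.21 TPM, through the B16F10 Aoah tumours, and Trbv16 had the higher mean in both B16mhgp100 groups. Trbv13-2 had 8.87 and 8.06 TPM in Aoah tumours of B16F10, against 0 and 2.26 TPM in Vector tumours. In B16mhgp100 it had 0.68, 0.71, 2.20 and 0 TPM in Aoah 1 to Aoah 4, against 0.79, 0.78, 2.12 and 0 TPM in Vector 1 to Vector 4. The first 3 libraries of each B16mhgp100 group were nearly level, and the last of each was listed at 0. The B16F10 log2 fold change was 2.39 (SE 0.58, limma adjusted p = 0.140).

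Trbv13-1, of the same family, had 2.72 and 5.76 TPM in B16F10 Aoah tumours and was listed at 0 in both Vector tumours. Its difference on the log2(TPM + 1) scale was 2.33 (SE 0.35, limma adjusted p = 0.0711), and with a group at 0 this size depends on the pseudocount. With a pseudocount of 0.1 it was 5.35. Trbv13-1 entered the fit through the Aoah libraries alone, and its Vector values had no spread, so nothing is read from these values. Trbv13-3 had 0.63 and 2.69 TPM in B16F10 Aoah tumours and was listed at 0 in both Vector tumours. Together the 3 Trbv13 segments made up 46.6% and 47.5% of the Trbv sum in the B16F10 Aoah tumours. In the B16mhgp100 libraries that had any, this share ran from 20.9% to 30.9% in Aoah and from 18.5% to 34.8% in Vector tumours, and Aoah 4 had none. Of the B16F10 Vector tumours, Vector 1 had none and Vector 2 had 57.2%, from Trbv13-2 alone.

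Trbv16 was the most widely seen segment, above 0 in 10 of 12 libraries. In B16mhgp100 it had 2.48, 1.03, 0.53 and 0 TPM in Aoah 1 to Aoah 4, against 0.57, 0, 3.59 and 2.14 TPM in Vector 1 to Vector 4. It had 3.69 and 2.93 TPM in B16F10 Aoah tumours, against 0.50 and 0.55 TPM in Vector tumours. The B16mhgp100 difference was -0.27 on the log2 scale (SE 0.53, limma adjusted p = 0.808) and 0.02 without Aoah 4. The B16F10 difference was 1.49 (SE 0.25, limma adjusted p = 0.0860), in a fit that Trbv16 entered through the Aoah libraries alone.

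Trbv19 had 2.03 and 2.94 TPM in B16F10 Aoah tumours and was listed at 0 in both Vector tumours. In B16mhgp100 it was listed at 0 in all 4 Aoah tumours, against 0.31, 0, 0 and 0.29 TPM in Vector 1 to Vector 4. Trbv19 was thus above 0 in 4 libraries only, and its B16F10 difference was 1.79 on the log2(TPM + 1) scale (SE 0.26, limma adjusted p = 0.0664). It entered this fit through the Aoah libraries alone, so nothing is read from this difference. Trbv29 had 1.17 and 3.72 TPM in B16F10 Aoah tumours, against 1.27 and 0 TPM in Vector tumours, and these overlapped. Trbv12-2 had 1.48 and 1.04 TPM in B16F10 Aoah tumours and was listed at 0 in both Vector tumours.

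Trbv14, which is part of the pmel-1 receptor against the melanoma antigen gp100, was read for that role. It had 1.08 and 2.28 TPM in B16F10 Aoah tumours and was listed at 0 in both Vector tumours. In B16mhgp100 it was above 0 in Aoah 2, at 1.20 TPM, against 0.66 TPM in Vector 2 and 0.60 TPM in Vector 3. At such levels a single segment says nothing of the antigen a clone sees.

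**Figure D3:**
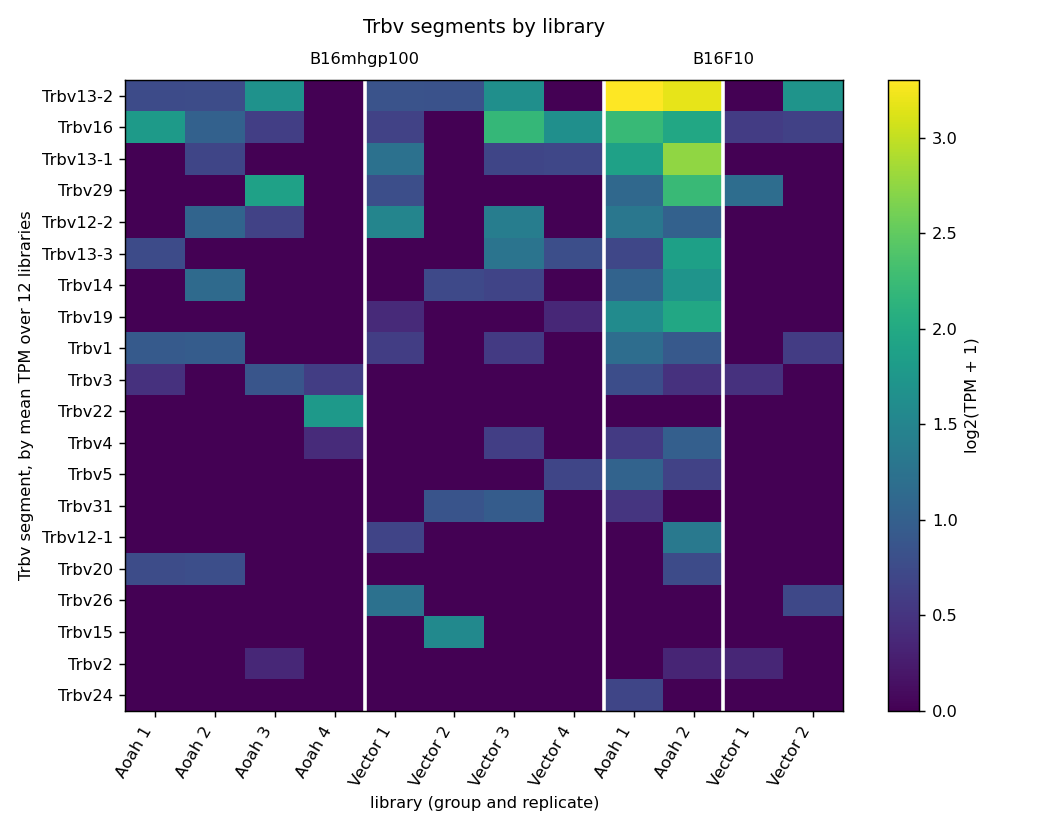
Level of the 20 Trbv segments (vertical axis, ordered by mean TPM) in the 12 libraries (horizontal axis, by model, construct and replicate), coloured by log2(TPM + 1). The B16F10 Aoah columns have 14 and 15 segments above 0, Trbv22 is above 0 in B16mhgp100 Aoah 4 alone, and no segment is above 0 in every library.

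The map of Trbv segments shows how unlike the leading segments were outside the B16F10 Aoah tumours. In B16mhgp100 Aoah 1 to Aoah 4 the leading segments were Trbv16, Trbv14, Trbv29 and Trbv22, against Trbv12-2, Trbv15, Trbv16 and Trbv16 in Vector 1 to Vector 4. In B16F10 they were Trbv13-2 in both Aoah tumours, against Trbv29 in Vector 1 and Trbv13-2 in Vector 2. The Trbv15 value, 1.96 TPM in Vector 2 of B16mhgp100, was the only one of that segment above 0. The leading Trbv segment held 19.0% to 73.9% of the Trbv sum in Aoah tumours of B16mhgp100, against 22.8% to 48.4% in Vector tumours.

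The 73.9% belonged to Trbv22 in Aoah 4. Trbv22 is annotated as a pseudogene, was at 2.41 TPM in this library and was listed at 0 in the other 11. The mean count in the authors' deposited table gives 3.98 normalised counts for it there. With its few reads and short annotated transcript of 291 bases, the value says little of functional receptors in that tumour.

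Trav4-4-dv10 was the leading alpha segment in 8 of 12 libraries, and its dv name marks segments that can also join in the delta chain. It had 3.01, 0, 3.23 and 0 TPM in Aoah 1 to Aoah 4 of B16mhgp100, against 2.08, 0, 1.24 and 0 TPM in Vector 1 to Vector 4. In B16F10 it had 3.92 and 2.76 TPM in Aoah tumours, against 1.81 and 1.99 TPM in Vector tumours. Replicates 2 and 4 of both B16mhgp100 groups were listed at 0. The log2 difference was 0.32 in B16mhgp100 (SE 0.61, limma adjusted p = 0.798) and 0.57 in B16F10 (SE 0.28, limma adjusted p = 0.347). In B16F10 its share of the Trav sum was 22.9% and 10.4% in Aoah tumours, against 18.6% and 54.7% in Vector tumours.

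Where Trav4-4-dv10 was at 0, other segments led by small values. They were Trav16n at 0.66 TPM in Aoah 2 and Trav6d-5 at 1.32 TPM in Aoah 4, against Trav8-1 at 0.85 TPM in Vector 2 and Trav3-3 at 1.03 TPM in Vector 4 of B16mhgp100. Over the B16mhgp100 groups the leading Trav segment held 28.2% to 46.0% of the Trav sum in Aoah tumours and 17.1% to 28.3% in Vector tumours. These ranges overlapped at the lowest Aoah and the highest Vector tumour, and Aoah tumours also had fewer Trav segments above 0 on average. The small overlap depends on counting copies of a segment apart. With copies summed, the leading share was 28.2% to 46.0% in Aoah and 17.1% to 42.0% in Vector tumours, a wide overlap. The 42.0% belonged to the Trav14-2 copies in Vector 4.

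Of the other abundant alpha segments, Trav16d-dv11 was above 0 in the B16F10 Aoah tumours alone, at 1.17 and 1.55 TPM. Its difference on the log2(TPM + 1) scale was 1.23 (SE 0.24, limma adjusted p = 0.105), and nothing is read from it, since these tumours alone brought the segment into the fit. Copies of Trav16d-dv11 were above 0 elsewhere, with Trav16n at 0.63 TPM in B16F10 Vector 1 and Trav16 at 0.52 TPM in B16mhgp100 Vector 1. How reads were divided among these copies was not tested. Trav14n-3 had 1.12 and 1.18 TPM in B16F10 Aoah tumours, against 1.33 and 0 TPM in Vector tumours, which overlapped, and its difference of 0.49 (SE 0.44) turned to -0.12 without Vector 2. Trav3-3 had 0.42 and 0.44 TPM in B16F10 Aoah tumours and was listed at 0 in both Vector tumours. Trav12-2 had 0.41 and 1.29 TPM in B16F10 Aoah tumours, against 0 and 0.48 TPM in Vector tumours.

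Segments of the invariant T cells were rare. Trav1, the alpha segment of mucosal-associated invariant T cells, was at 0.73 TPM in Aoah 1 of B16mhgp100, and in B16F10 at 0.53 TPM in Aoah 1, against 0.63 TPM in Vector 2. Trav11d, a copy of the alpha segment of invariant natural killer T cells, was at 0.73 TPM in Vector 4 of B16mhgp100 and listed at 0 elsewhere. No group showed either segment in more than 1 library.

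Copies in the duplicated alpha locus limit any count of segments. There were 13 pairs with equal TPM in all 12 libraries, all within a subgroup, and 12 of these pairs have identical annotated transcripts. Trav6d-7 and Trav6n-7, whose ends are printed above, both read 1.14 and 1.23 TPM in B16F10 Aoah tumours and 0 in both Vector tumours. In B16mhgp100 both read 0.32 TPM in Aoah 2 and 0.20 TPM in Aoah 4, against 0.35 TPM in Vector 2. Such pairs are 1 measurement entered under separate symbols. Summed to 37 subgroups, the Trav count was 17.5 ± 3.54 in B16F10 Aoah and 7.5 ± 4.95 in Vector tumours (SD, n = 2 each), and 6.5 ± 2.89 in B16mhgp100 Aoah and 8.75 ± 4.11 in Vector tumours (SD, n = 4 each).

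Variable and constant levels went together in the B16F10 Aoah tumours and came apart in B16mhgp100 Aoah 4. The ratio of the Trbv sum to the Trbc sum was 0.745, 1.85, 2.26 and 0.130 in Aoah 1 to Aoah 4 of B16mhgp100, against 0.827, 1.60, 3.31 and 1.40 in Vector 1 to Vector 4. In B16F10 it was 1.29 and 1.39 in Aoah tumours, against 0.398 and 2.27 in Vector tumours. The ratio of Aoah 4 was the lowest of all 12, and the next was 0.398. The ratio of Trav to Trac was also lowest in Aoah 4, at 0.793, and ran from 1.37 to 8.09 in the other 11 libraries.

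**Figure D4:**
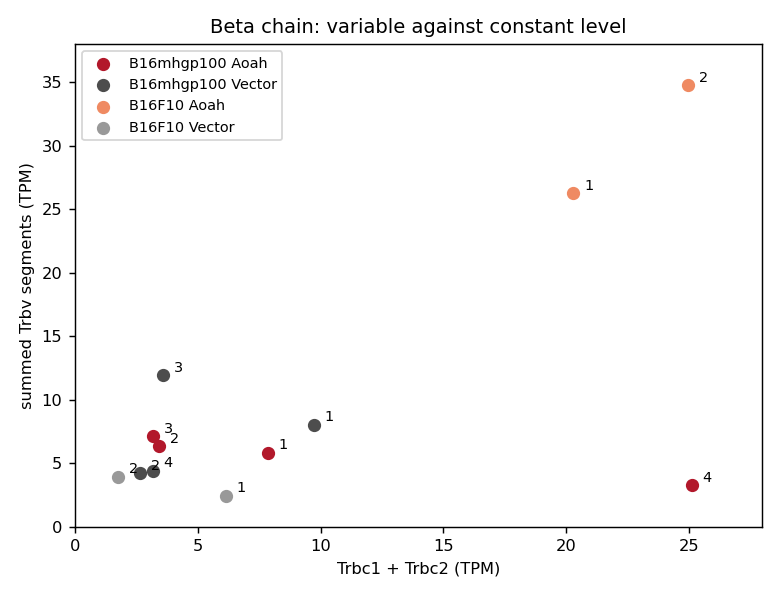
Summed Trbv level (vertical axis, TPM) against summed Trbc1 and Trbc2 level (horizontal axis, TPM) in the 12 libraries, coloured by group and numbered by replicate. The B16F10 Aoah libraries are high on both axes, and B16mhgp100 Aoah 4 has 25.11 TPM of Trbc and 3.26 TPM of Trbv.

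In the plot of variable against constant levels, Aoah 4 lies at the Trbc level of the B16F10 Aoah tumours and at the Trbv level of the Vector tumours. Other T cell genes in Aoah 4 were mixed. Cd3d, a chain of the CD3 complex that carries the receptor, was at 3.56 TPM there, against at most 1.96 TPM in the other B16mhgp100 libraries. The signalling genes Lat, at 6.80 TPM against at most 2.74 TPM, and Zap70, at 1.87 TPM against at most 1.21 TPM, were also highest there, as was Nkg7, at 17.67 TPM against at most 7.64 TPM. Cd3e, a further CD3 chain, was at 2.56 TPM, near the 2.47 TPM of Vector 1. Cd247, the zeta chain, was at 0.84 TPM, below the 2.87 to 6.58 TPM of the other 7 B16mhgp100 libraries. The summed level of the 3 keratinocyte markers, Krt14, Krt5 and Krt10, was 0.73 to 4120 TPM in Aoah, highest in Aoah 4, against 0.37 to 22.91 TPM in Vector tumours of B16mhgp100. The parts of skin RNA and of the length-dependent deviation in the Trbc level of Aoah 4 were not tested.

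The repertoire table gives a separate count of receptor sequences, from reads of the same libraries, in which clonotypes are distinct rearranged chains. The beta chain had 6, 5, 4 and 4 clonotypes in Aoah 1 to Aoah 4 of B16mhgp100, against 5, 2, 5 and 3 in Vector 1 to Vector 4. In B16F10 it had 20 and 21 in Aoah tumours, against 2 and 1 in Vector tumours. The B16mhgp100 groups overlapped, and the B16F10 groups were far apart. The alpha chain had 5, 3, 7 and 0 clonotypes in Aoah 1 to Aoah 4 of B16mhgp100, against 8, 0, 2 and 3 in Vector 1 to Vector 4, and 19 and 17 in B16F10 Aoah tumours, against 1 and 2 in Vector tumours.

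**Figure D5:**
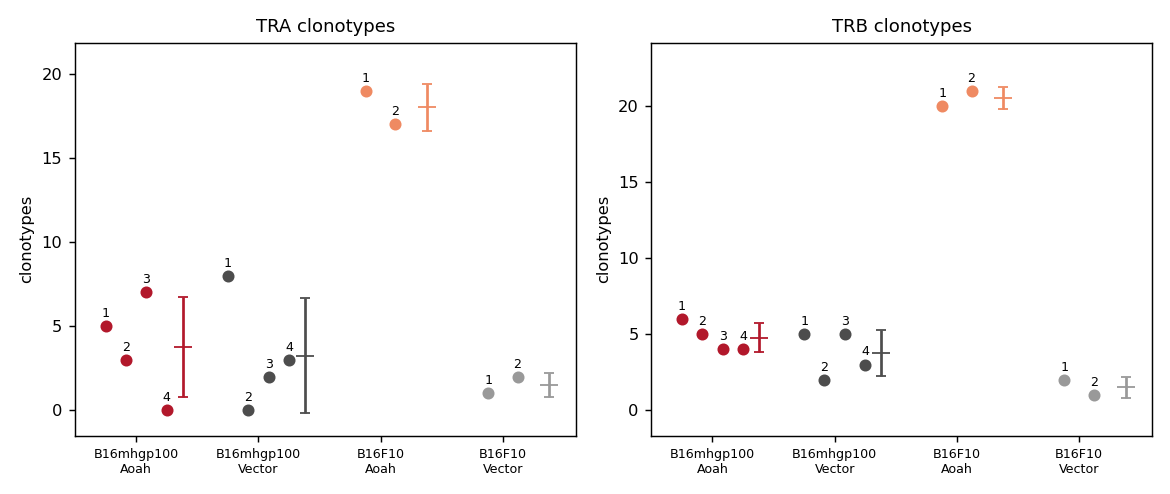
Number of TRA and TRB clonotypes (vertical axes) in each library, with points numbered by replicate and bars for the mean ± SD of each group. The B16F10 Aoah libraries have 17 to 21 clonotypes of each chain, and every other library has 8 or fewer.

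The plot of clonotypes shows the B16F10 Aoah tumours apart from the other 10 libraries for both chains. In B16mhgp100 the beta chain averaged 4.75 ± 0.957 clonotypes in Aoah and 3.75 ± 1.5 in Vector tumours (SD, n = 4 each), an exact 2-sided permutation p of 0.429. The alpha chain averaged 3.75 ± 2.99 clonotypes in Aoah and 3.25 ± 3.40 in Vector tumours, an exact permutation p of 0.943. Over the 8 measures tested, every adjusted p was 0.943, and an exact test of 4 against 4 cannot go below 0.0286 before adjustment. Alpha entropy and alpha clonality had values in 3 against 3 libraries, where the smallest exact permutation p is 0.1, so these measures could not pass. Of the other measures, a single one at the exact permutation limit of 0.0286 would not pass the adjustment over 8 either. Nothing is therefore read from the lack of measures that passed. Without Aoah 4 the Aoah means were 5 ± 1 beta and 5 ± 2 alpha clonotypes (SD, n = 3), and no measure passed.

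In B16F10 the alpha chain averaged 18 ± 1.41 clonotypes in Aoah and 1.5 ± 0.707 in Vector tumours, and the beta chain 20.5 ± 0.707 in Aoah and 1.5 ± 0.707 in Vector tumours (SD, n = 2 each). With 2 tumours a group, 0.333 is the smallest p that exact permutation allows. The difference between the models was set against permutations of Aoah and Vector within each model, which were added after seeing the data. Such permutations stand for no Aoah difference in either model. They do not test whether the models have equal differences, so nothing is read from the p-values below. The B16F10 difference exceeded that of B16mhgp100 by 18 beta clonotypes (exact permutation p = 0.300) and by 16 alpha clonotypes (exact permutation p = 0.214), with an adjusted p of 0.300 for both.

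Clones are the summed sizes of the clonotypes. There were 78 alpha clones in 67 clonotypes and 107 beta clones in 78 clonotypes over all libraries. In B16F10 the beta chain had 30 and 32 clones in Aoah tumours, against 2 and 1 in Vector tumours. In B16mhgp100 it had 6, 6, 7 and 4 clones in Aoah 1 to Aoah 4, against 5, 3, 8 and 3 in Vector 1 to Vector 4. The labels do not state what 1 clone counts in this table.

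The deposited entropy of each library fixes the sizes. In every library with an entropy, 1 set of whole sizes alone matched the clonotype number, the clone number and the entropy within 1e-06 bits. Of 66 alpha clonotypes so resolved, 56 (84.8%) had size 1, and of 77 beta clonotypes, 53 (68.8%) did. The largest clonotype of either chain had size 3. In B16F10, sizes above 1 were reached by 8 of 20 beta clonotypes in Aoah 1 and 10 of 21 in Aoah 2, and by 0 of 2 in Vector 1. No clonotype larger than 3 was observed in these libraries of at most 32 clones a chain.

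Entropy, the evenness and number of clonotypes in bits, followed clonotype number. For the beta chain it was 2.58, 2.25, 1.84 and 2.00 bits in Aoah 1 to Aoah 4 of B16mhgp100, against 2.32, 0.918, 2.16 and 1.58 bits in Vector 1 to Vector 4 (exact permutation p = 0.314). In B16F10 it was 4.19 and 4.29 bits in Aoah tumours, against 1.00 bit in Vector 1, and Vector 2 had no value. Clonality, which is 0 when all clonotypes are of equal size, was at most 0.0536 for the alpha and 0.0817 for the beta chain.

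Constant gene level and clonotype number were compared across libraries, with 2 relations in the family. The B16F10 Aoah tumours form a separate cluster, so a value over all 12 libraries is not given. In the other 10 libraries Pearson's r of Trac and alpha clonotypes was 0.438 (permutation p = 0.206, adjusted p = 0.412), and Spearman's rho was 0.287 (permutation p = 0.416). For Trbc2 and beta clonotypes, r was 0.192 (permutation p = 0.677) and rho was 0.573 (permutation p = 0.0861, adjusted p = 0.172). Within the 8 B16mhgp100 libraries r was 0.410 (permutation p = 0.306) and 0.0931 (permutation p = 0.826). Without the 2 libraries farthest from the median of Trbc2, B16mhgp100 Aoah 4 and B16F10 Aoah 2, its r was 0.945 (permutation p = 0.00973, adjusted p = 0.0195), and this keeps B16F10 Aoah 1 of the separate cluster. Within B16mhgp100 without Aoah 4, as added after seeing the data, r was 0.715 (permutation p = 0.0770) and 0.702 (permutation p = 0.0648). Both measures come from the same reads, so they are not separate support for each other.

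The genes most like Trac over the 12 libraries, by Pearson's r of log2(TPM + 1) among 14808 genes, were Septin1 at 0.953, Ctsw at 0.936, Nkg7 at 0.922, Cd3g at 0.921 and Skap1 at 0.916. Ctsw and Nkg7 are genes of cytotoxic lymphocytes, Cd3g is a chain of the CD3 complex and Skap1 an adaptor in T cell receptor signalling. These values are a description, and they share the B16F10 Aoah tumours as the high points.

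T cell genes that are no members were higher by value in the B16F10 Aoah tumours as well. The summed level of 8 T cell markers was 54.73 to 64.45 TPM in Aoah tumours of B16F10, against 5.91 to 13.23 TPM in its Vector tumours. In B16mhgp100 it was 12.80 to 18.59 TPM in Aoah, against 11.33 to 22.39 TPM in Vector tumours. In B16F10, 0 of 7 T cell markers tested were called by limma, with a median log2 fold change of 2.15 against 0.02 over all genes. Cd3d, Cd5 and Cd6 of these were below 1 TPM in both Vector tumours and entered through the Aoah libraries alone. The median therefore leans to genes high in Aoah, and nothing is read from it. Both CD8 chain genes, which mark cytotoxic T cells, were called, Cd8a at 3.25 (SE 0.27, limma adjusted p = 0.0286) and Cd8b1 at 2.76 (SE 0.26, limma adjusted p = 0.0384). In the Vector tumours Cd8a was at 0.64 and 0.36 TPM and Cd8b1 at 0.46 and 0.42 TPM. Both CD8 genes thus passed the filter of 1 TPM through the Aoah libraries alone, and nothing is read from their calls. With a filter of 0.1 TPM, with no filter or with any 1 library left out, 0 genes of any kind were called in B16F10, these included. In B16mhgp100, 0 of 6 T cell markers and 0 of 2 CD8 genes were called, with medians of 0.09 and 0.27 against -0.20 over all genes.

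Of the T cell receptor signalling genes, 0 of 9 tested were called in B16F10 and 0 of 7 in B16mhgp100. Zap70, the kinase that binds the phosphorylated CD3 chains, had 6.76 and 7.73 TPM in B16F10 Aoah tumours, against 0.92 and 0.57 TPM in Vector tumours. Of 3 gamma delta T cell genes tested in B16F10, 0 were called. Trgc2, a gamma constant gene, had 2.72 and 1.78 TPM in B16F10 Aoah tumours, against 0.56 and 0 TPM in Vector tumours. Trgv2, a gamma V segment, had 1.59 and 1.34 TPM in B16F10 Aoah tumours and was listed at 0 in both Vector tumours. Trgc2 and Trgv2 entered the fit through the Aoah libraries alone. The remaining gene tested, Sox13, went the other way, at 0.72 and 1.24 TPM in B16F10 Aoah tumours, against 1.46 and 2.07 TPM in Vector tumours. Trdc, the delta constant gene, was at no more than 0.27 TPM in any library. Genes of V(D)J recombination were near 0, with Rag2 and Dntt summing to at most 0.22 TPM in B16mhgp100 and listed at 0 in all B16F10 tumours. Of the 3 keratinocyte markers, Krt10 was called as higher in B16F10 Aoah tumours (3.11, SE 0.30, limma adjusted p = 0.0384), and Krt14, at 0.34, was not. Krt10 was at 0.28 and 0.58 TPM in Vector tumours, so it too passed the filter through the Aoah libraries alone. Krt5 had 0.60 and 0.73 TPM in Aoah tumours, against 0.15 and 8.68 TPM in Vector tumours. The 3 markers summed to 12.70 to 16.11 TPM in Aoah, against 0.43 to 15.02 TPM in Vector tumours, and their part in the receptor values was not tested.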

How the data were processed

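The authors deposited expression as log2(TPM + 1) values, which returned TPM after removal of the pseudocount of 1. The authors also deposited a repertoire table, whose clonotype, clone, entropy and clonality values were used as scores, and a table per model with mean normalised counts (a signal), log2 fold changes, test scores, p-values and adjusted p-values. The submitters' processing notes name RSEM, DESeq2 and build mm39. Not given in the sources here are versions, annotation, strand setting and the settings of the repertoire caller. Read depth cannot be had from TPM. Mean normalised counts summed to 13867900 in B16mhgp100 and 14279600 in B16F10 in the authors' deposited tables.

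TPM was tested with limma 3.58.1 in R 4.3.3, with an intensity trend, 2-sided, after a filter of 1 TPM in at least 4 (B16mhgp100) or 2 libraries (B16F10 and the difference). Each model was fitted alone, and the difference as an interaction in all 12 libraries. Repertoire measures were compared by exact permutation in Python 3.11.15 with scipy 1.17.1. Fits were also run on simulated data, in which changes were placed only in genes above the level of every segment. That run does not cover the segments, and nothing is read from it for them. Groups came from sample titles. Sequences, gene types and chromosomes are from GENCODE M21 (GRCm38), which matched 95 of 97 members by symbol, and no coordinates were used because the build differs. Identifiers of the authors' tables were named through the reference's gene name table, which matched 29916 of 31267 in B16mhgp100 and 25784 of 26878 in B16F10.

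Members and lists were chosen with earlier results of these data known. Named were the constant genes, segments past a threshold, the 8 Trav and 8 Trbv with the highest mean TPM, the leading segment of each library, Trav11, Trav11d, Trav1 and Trbv14, the 5 genes most like Trac, and up to 4 members of each list with the smallest p. Trav11 has no value here. Trbv22 was described at more length after its values were seen. Alternatives changed the pseudocount, filter, scaling, trend, block, copies, detection limit and libraries.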

Additional observations from a re-analysis of the deposited data

Results flagged for a closer look

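Groups of 4 tumours were screened for a highest or lowest library far from the others relative to the group's range. Of 32 such groups, 4 met Dixon's 95% limit, where chance gives about 1 in 20, or 1.6 here. The groups are related measures of the same libraries, so 1.6 is a rough guide only. In B16mhgp100 Vector 1, Trbc1 was at 4.59 TPM with the nearest Vector library at 1.59 TPM. In the same library Trbc2 was at 5.13 TPM with the nearest at 2.01 TPM. In Vector 4 the ratio of Trav to Trac was 6.57, with the nearest at 3.00. In Vector 2 the leading Trav segment held 28.3% of the Trav sum, with the nearest library at 18.3%. With copies summed, Vector 4 was above it, at 42.0%. The Vector 4 ratio rests on Trac of 0.87 TPM, and the Vector 2 share on a Trav sum of 3.00 TPM. Trbc2 of B16mhgp100 Aoah 4, at 19.23 TPM with the nearest Aoah library at 5.25 TPM, did not meet the limit.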

How the results depend on the processing

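Most values kept their direction and their side of the threshold. In B16mhgp100 0 members were called under every alternative run. In B16F10, 12 members (768 of 14533 genes) were called with a replicate block, 2, Trbv19 and Trav16d-dv11, in 1 fit of all 12 libraries (61 of 16556 genes), and 0 otherwise. Trbv19 and Trav16d-dv11 entered the fit of all libraries through the B16F10 Aoah tumours alone. Same-numbered tumours showed little common deviation (r from -0.227 to 0.0628 in B16mhgp100 and -0.0855 in B16F10). With 2 tumours a group, the B16F10 check holds a single value up to its sign. These values cannot show whether the numbers pair tumours, and the labels do not state it, so the block was kept as an alternative only. For the difference between models, 2 members (19 genes) were called with a filter of 0.1 TPM, 3 (46 genes) with none, 1 (11 genes) without the trend, and 0 to 1 with a library left out (45 genes without Aoah 4 of B16mhgp100). In B16F10 the gap in segments was 26.5 above 0 TPM and 15 at 1 TPM or more. Pearson's r of Trac with alpha clonotypes was 0.438 without the 2 farthest libraries, 0.410 in B16mhgp100 and 0.715 there without Aoah 4, and that of Trbc2 with beta clonotypes was 0.945 without its 2 farthest libraries, 0.192 without the B16F10 Aoah tumours, 0.0931 in B16mhgp100 and 0.702 there without Aoah 4. In B16mhgp100, differences in alpha clonotypes and clones per Trac TPM turned to -0.0339 and -0.186, and alpha clonality with the block to 0.00587. With a library left out, small differences changed sign: -0.12 to 1.10 for Trav14n-3 in B16F10, and in B16mhgp100 -0.0287 to 0.66 for Trav4-4-dv10, -0.31 to 0.40 for Trbc1, -0.64 to 0.0913 for Trbv16, -0.583 to 2.08 alpha clonotypes, -1.08 to 2.25 alpha clones, -0.0131 to 0.961 bits of alpha entropy, -0.0258 to 0.00101 of alpha clonality and -0.0282 to 0.0034 of beta clonality. The cause was not tested. Few reads fell on the segments, of which 67 of 71 and 55 of 68 averaged under 1 normalised count a library in the authors' deposited tables. The part of read depth in this was not tested.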
